A study of Homo sapiens with 6 samples.

Results

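The transcripts described here belong to 10 genes of mitotic entry, the spindle checkpoint and chromosome separation: BUB1 (ENST00000302759), BUB1B (ENST00000287598), TTK (ENST00000369798), MAD2L1 (ENST00000296509), CDC20 (ENST00000310955), CCNB1 (ENST00000256442), CDK1 (ENST00000395284), PLK1 (ENST00000300093), KIF11 (ENST00000260731) and TOP2A (ENST00000423485). One Ensembl transcript per gene was chosen by its identifier, and all 10 rows were present among the 102731 rows of the deposited mRNA table. The lines compared were PC3, which comes from a human prostate cancer and is labelled docetaxel sensitive, and its derivative PC3-DR, labelled docetaxel resistant. Each was represented by 3 libraries of total RNA. According to the labels, PC3-DR arose from 5 docetaxel cycles of 48 h with doses of 4 and 8 nM, then 12 such cycles with 8 and 12 nM. Exposure was then continuous and went from 10 nM in steps of 5 nM to 50 nM, followed by 1 month at 40 nM. Both lines grew in DMEM with fetal bovine serum, and PC3-DR is a single derived line. Whether replicates were separate cultures is not stated, so p-values measure the spread between these libraries, which may be technical.

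Entry into mitosis is driven by the kinase CDK1 bound to cyclin B1, the product of CCNB1, with the kinase PLK1 helping to switch it on. The spindle checkpoint then holds cells before anaphase until every kinetochore is attached to microtubules. TTK, BUB1, the BUB1B product BubR1 and the MAD2L1 product MAD2 build this signal, and its target is CDC20, the activator of the anaphase-promoting complex. Docetaxel stabilises microtubules and keeps this checkpoint on. The mRNAs of these genes are known to peak in G2 and mitosis, so in dividing cells they track the cell cycle. In bulk RNA, fewer cells in G2 or mitosis and less RNA per such cell cannot be told apart.

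Many promoters of this class carry a cell cycle genes homology region, read here as TTTGAA or TTCGAA, and CCAAT boxes. In the RefSeq windows of 300 bases around each gene's start (build GRCh38.p14), 9 of the 10 genes were matched, all but TTK. The homology region letters, sought on both strands, occurred in 8 of these 9 genes against 16.35% of all 35116 windows. CCAAT, also sought on both strands, occurred in 8 of 9 against 34.61%, and both motifs together in 7 of 9 against 6.38%. CDK1 has a pair of windows and was counted if either held the motif, and a match of letters is not a bound site. The 160 bases before the start are printed for the matched genes whose transcripts had their highest level in PC3-DR replicate 1, the library with the highest summed level of the 10 transcripts. They were chosen after the levels were seen, and capitals mark both motifs on either strand.
TOP2A, chr17:40417897-40418056, minus strand: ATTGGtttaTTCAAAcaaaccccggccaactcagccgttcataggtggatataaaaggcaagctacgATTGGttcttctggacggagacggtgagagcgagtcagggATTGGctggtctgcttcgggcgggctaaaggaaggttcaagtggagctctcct
CCNB1, chr5:69166990-69167149, plus strand: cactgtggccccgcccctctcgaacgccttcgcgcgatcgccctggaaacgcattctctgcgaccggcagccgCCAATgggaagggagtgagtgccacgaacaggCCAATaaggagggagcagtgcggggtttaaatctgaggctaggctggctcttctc
PLK1, chr16:23678729-23678888, plus strand: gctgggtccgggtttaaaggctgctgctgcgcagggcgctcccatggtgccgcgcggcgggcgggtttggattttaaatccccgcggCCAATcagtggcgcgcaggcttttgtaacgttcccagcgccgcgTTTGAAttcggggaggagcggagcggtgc
CDC20, chr1:43358821-43358980, plus strand: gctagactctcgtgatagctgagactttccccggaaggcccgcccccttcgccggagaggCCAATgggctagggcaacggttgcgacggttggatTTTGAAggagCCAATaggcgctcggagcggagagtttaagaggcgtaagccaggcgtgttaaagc
BUB1, chr2:110678064-110678223, minus strand: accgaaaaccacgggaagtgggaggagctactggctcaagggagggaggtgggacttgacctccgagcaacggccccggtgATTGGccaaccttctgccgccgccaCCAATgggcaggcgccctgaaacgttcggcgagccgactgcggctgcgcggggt
In this stretch the CDC20 promoter had the homology region letters between its CCAAT boxes, starting 65 bases before the start, and the PLK1 promoter had them 29 bases before it. The CCNB1 stretch had CCAAT boxes beginning 87 and 55 bases before the start and none of the homology region letters. BUB1 had CCAAT letters at 79 and 54 bases before the start, the first on the other strand. Its homology region letters began at base 2 counted from the start, outside the printed stretch. The TOP2A stretch had 3 CCAAT boxes, all on the other strand. It also had the homology region letters on that strand, 151 bases before the start.

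Levels are given in FPKM, which corrects reads for the length of the transcript and for the total of the library. The unit was inferred from the values. Because each low value is a whole number of reads on a whole transcript length, library totals and reads could be read back. The totals were between 14411000 and 16186000 in 5 libraries and 43153000 in PC3-DR replicate 1. That library also stood apart across the table, with 14943 rows at 1 FPKM or more against 22650 to 29399 in the others. The median difference of its tested transcripts from the 5 remaining libraries (their mean) was -0.55 on the log2(FPKM + 1) scale. Neither the PC3 identity nor other genes of the cell cycle could be checked, since 0 of the mRNA-table identifiers matched a symbol in the tables used here. Other isoforms of the 10 genes were therefore not analysed here either, and each level is that of 1 transcript and not of its gene.

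Transcripts of this group were at low FPKM in both lines, and in 5 of 6 libraries their median rank within the library lay between the percentiles 79.1 and 93.8. In PC3 replicate 3, where 6 of 10 were listed at 0, it was 24.1. TOP2A, which encodes the topoisomerase that untangles sister DNA, was the most abundant, with a median of 5.19 FPKM over 6 libraries and a range of 2.68 to 7.57. It lay above KIF11, next in order with a median of 2.10 FPKM, in 6 of 6 libraries, and their ranges did not overlap. CCNB1, BUB1B, MAD2L1, CDC20 and PLK1 followed with medians between 1.25 and 1.87 FPKM, and all neighbours in this order overlapped. TTK, CDK1 and BUB1 came last with medians of 0.17, 0.02 and 0 FPKM. TOP2A stood at or above the 96.8th percentile of all rows in every library. Only 4 members were above 0 in all 6 libraries, namely TOP2A, KIF11, CCNB1 and MAD2L1. The other 6 were listed at 0 in at least 1 library, and a listed 0 for a gene that dividing cells use can be a failed estimate. For each of them the FPKM of every library is given without a group mean. The fitted differences and summed levels below still include these zeros.

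**Figure D1:**
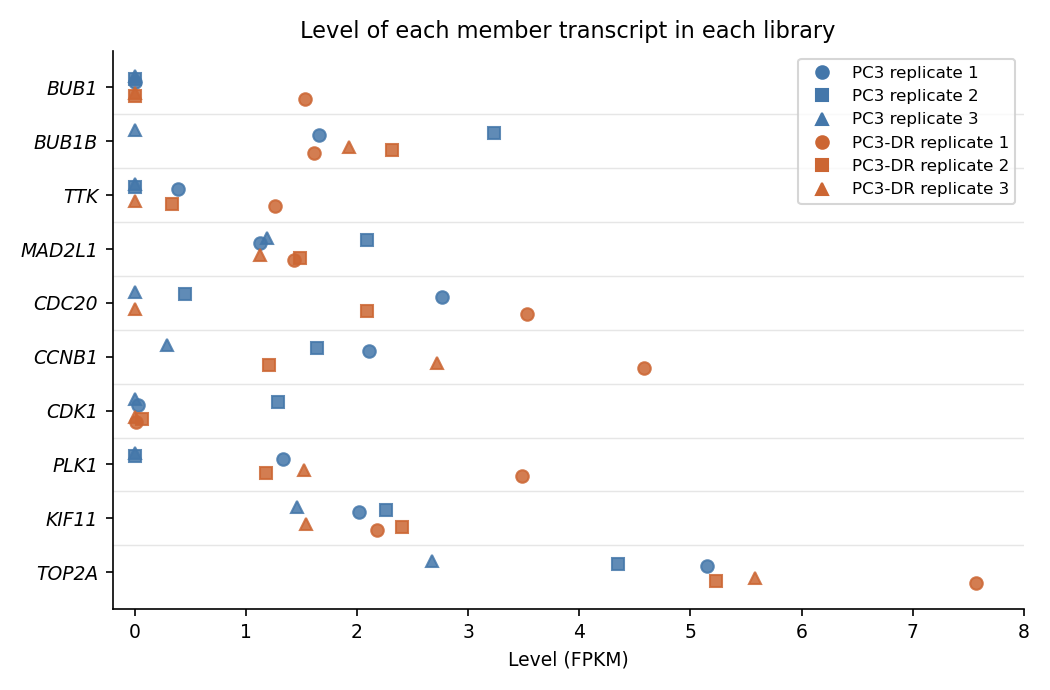
Level of each of the 10 transcripts (rows) in FPKM (horizontal axis), with 1 point per library, blue for PC3 and orange for PC3-DR, and marker shape for replicate number. TOP2A lies rightmost, from 2.68 to 7.57 FPKM, and PC3-DR replicate 1 is the highest point for 6 of the 10 transcripts.

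Among the genes of mitotic entry, CCNB1 stood at 2.11, 1.64 and 0.288 FPKM in PC3 replicates 1 to 3. PC3-DR replicates 1 to 3 had 4.58, 1.21 and 2.72 FPKM. The groups overlapped, since PC3-DR replicate 2 lay below 2 of the 3 PC3 libraries. Mean levels were 1.34 ± 0.94 FPKM (SD, n = 3) for PC3 and 2.84 ± 1.69 FPKM (SD, n = 3) for PC3-DR, a ratio of 2.11. PC3 replicate 3 held 9 reads of CCNB1, a level with an exact 95% Poisson interval of 0.132 to 0.547 FPKM, and PC3-DR replicate 1 held 429, with an interval of 4.16 to 5.04 FPKM. These intervals cover counting error only. The fitted difference, PC3-DR minus PC3, was 0.71 ± 0.47 (SE) on the log2(FPKM + 1) scale (limma, adjusted p = 0.891), which did not pass the threshold of 0.05.

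PLK1 was at 1.33 FPKM in PC3 replicate 1 and listed at 0 in PC3 replicates 2 and 3, where 3 reads would correspond to 0.0921 and 0.0935 FPKM. PC3-DR replicates 1 to 3 had 3.49, 1.18 and 1.52 FPKM, or 335, 42 and 53 reads, so that it was found in every PC3-DR library. The groups overlapped because PC3-DR replicate 2 lay below PC3 replicate 1. PLK1 had the largest fitted difference of the tested members, 1.13 ± 0.47 (SE), a value that depends on the pseudocount because of the zeros. It had an unadjusted p of 0.0357 and an adjusted p of 0.790 in limma, so it did not pass. PLK1 reached 1 FPKM in 1 of 3 PC3 libraries and entered the test through PC3-DR, so this p is not independent of its difference. Without PC3-DR replicate 1 the difference was 0.82, and over single libraries left out it ran from there to 1.54.

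CDK1, the kinase that cyclin B1 activates, was close to absent as this transcript. It held 1, 36 and 0 reads in PC3 replicates 1 to 3, or 0.0323, 1.29 and 0 FPKM. The 3 PC3-DR libraries held 1, 2 and 0 reads, or 0.0121, 0.0652 and 0 FPKM. Only PC3 replicate 2 stood clear of the others, with a counting interval of 0.901 to 1.78 FPKM. CDK1 did not reach 1 FPKM in 3 libraries and was not tested. Its partner CCNB1 was higher than CDK1 in all 6 libraries.

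Of the checkpoint genes, MAD2L1 was the steadiest. PC3 replicates 1 to 3 had 1.13, 2.09 and 1.19 FPKM, PC3-DR replicates 1 to 3 had 1.43, 1.48 and 1.12 FPKM, and the groups overlapped widely. The means were 1.47 ± 0.54 and 1.35 ± 0.19 FPKM (SD, n = 3 each). The fitted difference was -0.06 with a 95% interval of -0.81 to 0.70 (limma, adjusted p = 0.974). It was 0.16 after rescaling by the median of ratios and 0.041 after quantile normalization, which moved the median of all tested transcripts from -0.13 to 0.02 and -0.01.

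BUB1B, whose product BubR1 inhibits CDC20, stood at 1.66, 3.23 and 0 FPKM in PC3 replicates 1 to 3, or 100, 176 and 0 reads. PC3-DR replicates 1 to 3 had 1.61, 2.31 and 1.93 FPKM. The PC3 libraries thus held both the highest and the lowest value, and the PC3-DR libraries fell between them. In PC3 replicate 3, 3 reads would give 0.0559 FPKM. The fitted difference of 0.39 ± 0.50 (SE; limma, adjusted p = 0.908) rested on that value of 0 and was -0.19 without PC3 replicate 3.

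BUB1, the kinase that recruits other checkpoint proteins to kinetochores, was listed at 0 in 5 libraries and at 1.53 FPKM in PC3-DR replicate 1. That value corresponds to 66.2 reads per kilobase. The length of this transcript could not be read from a single value, so no limit is given for the zeros. TTK, the kinase at the top of the checkpoint, was also highest in PC3-DR replicate 1, at 1.26 FPKM or 164 reads. It was at 0.390 FPKM in PC3 replicate 1 and 0.332 FPKM in PC3-DR replicate 2, with 19 and 16 reads, and listed at 0 in the other 3 libraries. Neither reached 1 FPKM in 3 libraries, and neither was tested.

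CDC20, the checkpoint's target, stood at 2.77, 0.449 and 0 FPKM in PC3 replicates 1 to 3, and PC3-DR replicates 1 to 3 had 3.53, 2.09 and 0 FPKM. Each line thus had 1 library listed at 0, replicate 3 in both, and the groups overlapped. At 0, the limit from 3 reads, which covers counting error only, was 0.124 FPKM in PC3 replicate 3 and 0.115 FPKM in PC3-DR replicate 3. The fitted difference was 0.45 ± 0.64 (SE), with the widest 95% interval of the tested members, -0.96 to 1.87 (limma, adjusted p = 0.911). It was -0.0033 without PC3-DR replicate 1, 0.044 without PC3 replicate 3 and 1.09 without PC3-DR replicate 3.

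KIF11 encodes the motor Eg5, which pushes spindle poles apart. It varied least of all members, from 1.46 to 2.40 FPKM, with values of 2.02, 2.26 and 1.46 FPKM in PC3 replicates 1 to 3 while PC3-DR replicates 1 to 3 had 2.18, 2.40 and 1.54 FPKM. The means, 1.91 ± 0.41 and 2.04 ± 0.45 FPKM (SD, n = 3 each), differed by less than the spread between libraries. The fitted difference was 0.06 with a 95% interval of -0.69 to 0.81 (limma, adjusted p = 0.972).

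TOP2A was the only tested member whose groups did not overlap. It stood at 5.15, 4.35 and 2.68 FPKM in PC3 replicates 1 to 3. PC3-DR replicates 1 to 3 had 7.57, 5.23 and 5.58 FPKM. The gap between the groups was narrow, from 5.15 to 5.23 FPKM, and the counting intervals of PC3 replicate 1 (4.70 to 5.63 FPKM) and PC3-DR replicate 2 (4.78 to 5.72 FPKM) overlapped. The means were 4.06 ± 1.26 and 6.13 ± 1.26 FPKM (SD, n = 3 each), a ratio of 1.51. The fitted difference was 0.51 ± 0.37 (SE; limma, adjusted p = 0.895). It was 0.37 without PC3-DR replicate 1 and 0.30 without PC3 replicate 3, the lowest PC3 library.

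Over the group as a whole, 7 of 10 members had at least 1 FPKM in at least 3 libraries and were tested among 24937 transcripts. In limma 0 of these 7 passed an adjusted p of 0.05, where 0.00401% of all tested transcripts did, and their adjusted p lay between 0.790 and 0.974. At an unadjusted p under 0.05, 1 of 7 was found, PLK1, against 6.1% of all tested transcripts, and voom on the recovered reads gave 0 calls and 1 at an unadjusted p under 0.05, against 9.31% of all transcripts it tested. PLK1 passed the filter on low values through the PC3-DR libraries, since 1 of 3 PC3 libraries reached 1 FPKM, so its p and its place in these counts are not independent of its difference. CDC20 reached 1 FPKM in only 3 libraries, PC3 replicate 1 and PC3-DR replicates 1 and 2. Its place in these counts and in the members' median thus also depends on PC3-DR values. All 3 PC3-DR values lay above all 3 PC3 values in 1 of 7, TOP2A, against 4.11% of all tested transcripts, and below in 0 of 7 against 6.97%. The fitted difference was above 0 in 6 of 7 members and in 39.9% of all tested transcripts. The members' median difference was 0.45 on the log2(FPKM + 1) scale, against -0.13 over all tested transcripts. These counts describe the members that passed the filter on low values and are no test of the group. Rescaling by the median of ratios moved the median of all tested transcripts to 0.02, with 51.9% of them above 0. It moved that of the members to 0.71, with 7 of 7 above 0.

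**Figure D2:**
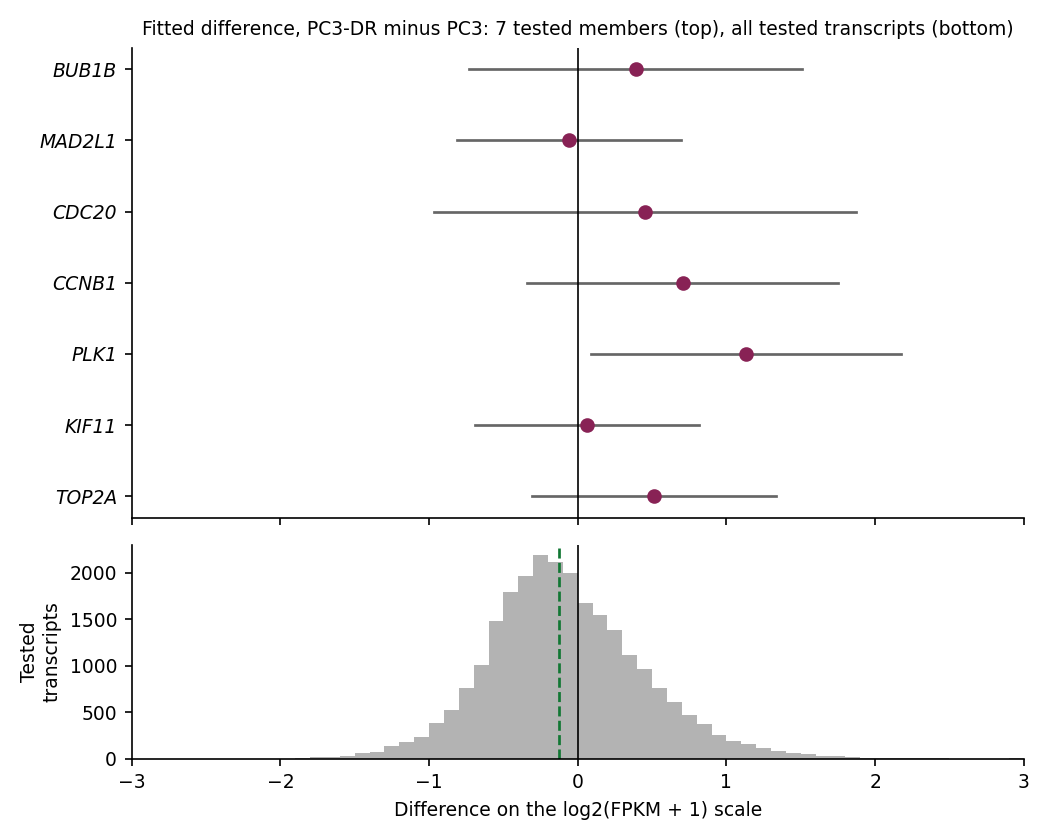
Top, fitted difference between PC3-DR and PC3 on the log2(FPKM + 1) scale for the 7 tested members (points) with unadjusted 95% intervals from limma (lines). Bottom, the number of tested transcripts at each difference, with a dashed line at their median of -0.13 and values beyond 3 drawn at the edge. The PLK1 interval alone lies above 0 before adjustment, and PLK1 passed the filter on low values through its PC3-DR libraries.

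Single libraries weighed heavily on these differences, and PC3 replicate 3 and PC3-DR replicate 1 lay at opposite ends. PC3 replicate 3 listed 6 of the 10 members at 0, and 48.3% of all rows were at 0 there, against 31.4% to 37.7% in the other libraries. It held the lowest value of 4 of the 7 tested members, against 20.6% of all tested transcripts with their single lowest value there. Its tested members had a median difference of -1.17 from the 5 remaining libraries (their mean) on the log2(FPKM + 1) scale, while that of all tested transcripts was -0.03. PC3-DR replicate 1 listed 0 members at 0 and held the highest value of 6 of 10, namely BUB1, TTK, CDC20, CCNB1, PLK1 and TOP2A. Among the 7 tested this was 4, against 12% of all tested transcripts. Its tested members had a median difference of 0.64 from the 5 remaining libraries, against -0.55 for all tested transcripts. In the 4 remaining libraries the member medians lay between -0.10 and 0.19, though single members still differed there. CDC20 ran from 0 to 2.77 FPKM among them. PC3 replicate 2 and PC3-DR replicate 3 listed 3 and 4 members at 0, and PC3 replicate 1 and PC3-DR replicate 2 listed 1 each. What set PC3 replicate 3 and PC3-DR replicate 1 apart was not tested.

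**Figure D3:**
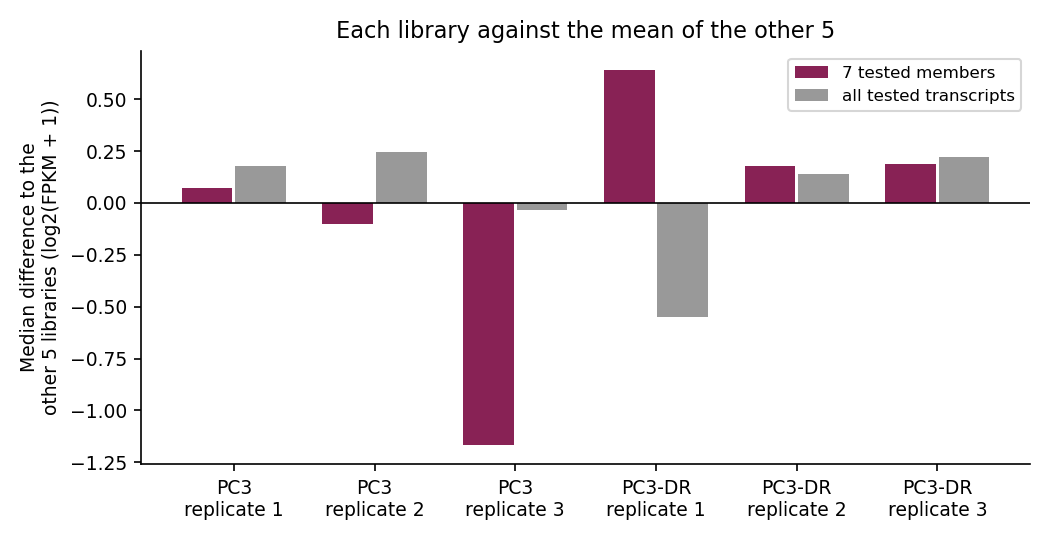
Median difference of each library from the 5 remaining libraries (their mean) on the log2(FPKM + 1) scale, for the 7 tested members (purple bars) and for all tested transcripts (grey bars). The bars point in opposite directions in PC3-DR replicate 1, at 0.64 and -0.55, and the members fall lowest in PC3 replicate 3, at -1.17.

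The summed level of the 10 transcripts showed the same ends. It was 16.6, 15.3 and 5.61 FPKM in PC3 replicates 1 to 3, while PC3-DR replicates 1 to 3 had 27.2, 16.3 and 14.4 FPKM. The group means were 12.5 ± 6.0 and 19.3 ± 6.9 FPKM (SD, n = 3 each), and the groups overlapped. PC3 replicates 1 and 2 and PC3-DR replicates 2 and 3 lay together between 14.4 and 16.6 FPKM. Listed zeros made up 10 of 30 member values in PC3 and 5 of 30 in PC3-DR, and 6 of those in PC3 came from replicate 3. Of all rows, 41.0% of values in PC3 and 34.6% in PC3-DR were at 0.

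Ranks within a library do not depend on scaling between libraries, but they do depend on the levels of all other rows there. BUB1B ranked at 92.3 with 1.61 FPKM in PC3-DR replicate 1, and at 85.7 with 1.66 FPKM in PC3 replicate 1. The median percentile of the 10 members among all rows was 83.1, 81.0 and 24.1 in PC3 replicates 1 to 3 and 93.8, 81.3 and 79.1 in PC3-DR replicates 1 to 3. The value of 24.1 is the shared rank of all rows listed at 0 in PC3 replicate 3. In PC3-DR replicate 1, 9 of 10 members stood at or above the 89.1th percentile, and the exception was CDK1 at 32.6. CCNB1 ran from the 59.0th percentile in PC3 replicate 3 to the 98.5th in PC3-DR replicate 1. MAD2L1, whose FPKM in PC3-DR replicate 1 was the third of 6, ranked at 90.9 there, above its rank in the other 5 libraries, between 75.2 and 90.1.

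**Figure D4:**
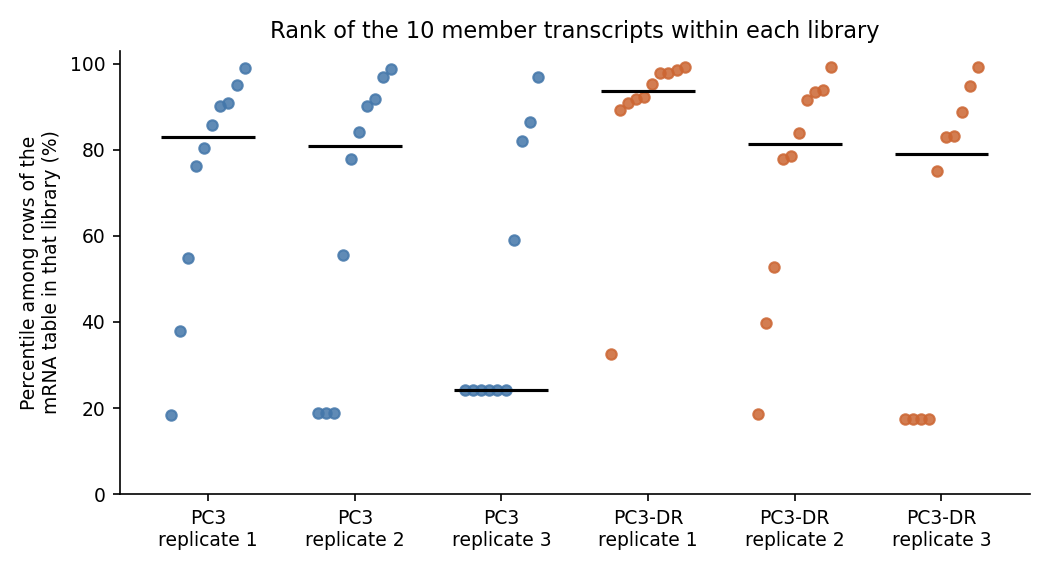
Percentile of each of the 10 transcripts among all rows of the mRNA table (vertical axis, percent) within each library (horizontal axis), with a black bar at their median. The median is 24.1 in PC3 replicate 3, where 6 transcripts share the rank of 0 FPKM, and 93.8 in PC3-DR replicate 1.

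Leaving out PC3 replicate 3 took the median difference of the 7 members from 0.45 to 0.044, with 4 of 7 above 0. In that fit all tested transcripts had a median of -0.18, and 35.3% of them were above 0. Without PC3-DR replicate 1 it was 0.37, with 5 of 7 above 0, and all tested transcripts then had a median of 0.05, with 55% above 0. PLK1, CCNB1 and TOP2A kept a difference above 0 with any single library left out, with lowest values of 0.82, 0.32 and 0.30. TOP2A could not turn, because its groups did not overlap. PLK1 had little room to turn, being listed at 0 in 2 of 3 PC3 libraries and above 0 in all PC3-DR libraries. KIF11, MAD2L1, BUB1B and CDC20 each had a difference on both sides of 0 in these fits.

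**Figure D5:**
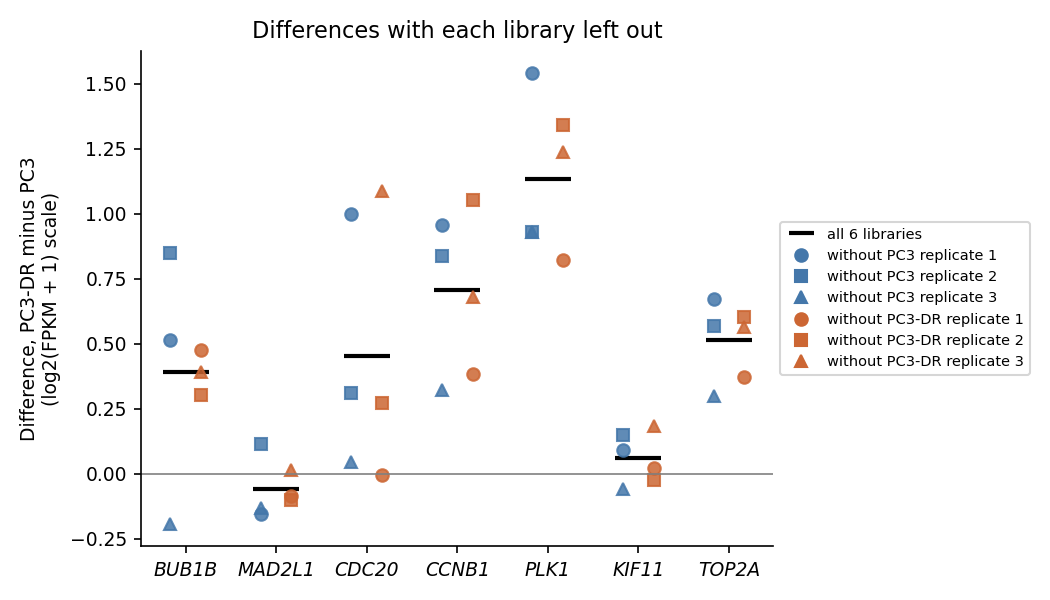
Fitted difference between PC3-DR and PC3 on the log2(FPKM + 1) scale for each tested member with all 6 libraries (black bars) and with 1 library left out (points, coloured by the group and shaped by the replicate left out). PLK1, CCNB1 and TOP2A stay above 0, at 0.82, 0.32 and 0.30 or more, and the other 4 members have points on both sides of 0. TOP2A could not turn, because its groups did not overlap.

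Some members followed each other over the 6 libraries. Pearson's r of log2(FPKM + 1) was 0.94 for CCNB1 with TOP2A, 0.90 for PLK1 with TOP2A and 0.83 for CCNB1 with PLK1. MAD2L1 had r of 0.02, 0.03 and -0.35 with CCNB1, TOP2A and PLK1. Over the 21 pairs of tested members the median was 0.57 and 13 pairs exceeded 0.5, where all pairs of tested transcripts had a median of 0.154 and exceeded 0.5 in 25.6%. All pairs share the same 6 libraries and their scaling. Without PC3 replicate 3 and PC3-DR replicate 1, left out because the members lay lowest and highest there, 5 of 21 member pairs exceeded 0.5 and their median was -0.35. Over the same 4 libraries all pairs had a median of -0.003 and exceeded 0.5 in 25.5%. Leaving out libraries by the members' own extremes can itself lower their r, and it was not done by the extremes of all pairs. The medians of -0.35 and -0.003 are thus not a like comparison. There r was 0.97 for PLK1 with TOP2A, 0.43 for CCNB1 with TOP2A and 0.38 for CCNB1 with PLK1. Each r rests on only 4 values. Those of PLK1 depend largely on its listed 0 in PC3 replicate 2, as the others of these libraries had 1.18 to 1.52 FPKM. MAD2L1 had r of -0.60, -0.91 and -0.95 with CCNB1, TOP2A and PLK1. Over all member pairs, r in these 4 libraries ran from -0.95 for CCNB1 with KIF11 to 0.98 for BUB1B with MAD2L1.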

How the data were processed

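Total RNA was sequenced from 3 PC3 and 3 PC3-DR libraries. The authors deposited a normalized mRNA table with 1 column per library, named as the sample titles, and 0 columns belonged to no sample. The table was read as FPKM, a unit that the authors' header does not name and that was inferred from the deposited values. The submitters' processing notes list HISAT2, TopHat2, StringTie and featureCounts among their tools, with no role or version, and mm9, a mouse build, for these human samples. No coordinate was therefore taken from the files. The annotation and strand setting were not given in the sources used here. A second deposited table, of lncRNA transcripts, held none of the members and was not used.

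The reciprocals of low values gave each library total, and lengths between 200 and 60000 nt gave whole reads for 71087 of 71088 rows above 0 in at least 3 libraries. These totals are an inference and could count fragments in place of reads. Rows that reached 1 FPKM in 3 or more libraries entered a two-sided limma test (version 3.58.1, R 4.3.3) of log2(FPKM + 1). The fit had a mean-variance trend and group as its term, and p-values were adjusted by Benjamini-Hochberg over all tested rows, with a threshold of 0.05. This scale understates changes of low transcripts. The length search and the test were tested on simulated data. Intervals are exact 95% Poisson intervals, and limits for 0 use 3 reads. Both cover counting error only, so the limits do not bound a listed 0 that is a failed estimate. All 10 members are named whatever their values. Gene lists of the pathway and of cell markers could not be matched to the identifiers and were not analysed. Members, lists and tests were chosen with earlier results of these data known. No column was a copy of another, with at most 0.002% of values above 0 equal between any pair. This count could not detect repeat sequencing of the same RNA. Promoter windows came from RefSeq (GRCh38.p14). Python 3.11.15, NumPy 2.4.6, pandas 2.3.3, SciPy 1.17.1, numba 0.67.0 and matplotlib 3.10.9 were used.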

Additional observations from a re-analysis of the deposited data

How the results depend on the processing

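In all 16 alternatives, 0 members passed limma's adjusted threshold, and their lowest adjusted p was 0.505. Of 106 member differences recomputed, 98 kept their direction and 8 turned. MAD2L1 turned from -0.06 to 0.16 after rescaling by the median of ratios, 0.041 after quantile normalization, 0.11 without PC3 replicate 2 and 0.013 without PC3-DR replicate 3. BUB1B turned to -0.19 and KIF11 to -0.058 without PC3 replicate 3, KIF11 to -0.026 without PC3-DR replicate 2, and CDC20 to -0.0033 without PC3-DR replicate 1. With single libraries left out, MAD2L1 ranged from -0.15 to 0.11, BUB1B from -0.19 to 0.85, CDC20 from -0.0033 to 1.09 and KIF11 from -0.058 to 0.18. The turns under rescaling came with a shift of all tested transcripts, whose median went from -0.13 to 0.02 and -0.01. PLK1 ran from 0.37 with a pseudocount of 5 to 5.02 with voom. The members' median difference was 0.45 as reported, 0.17 with a pseudocount of 5, 0.78 with one of 0.1, 1.48 with voom on recovered reads, a scale of log2 reads without the pseudocount of 1 FPKM, and between 0.044 and 0.67 with single libraries left out. Over the mRNA table, 1 transcript passed as reported. The count was 0 when the pseudocount was 0.1 or 5, when all rows or those reaching 5 FPKM were tested (under the latter TOP2A alone of the members), and with rescaling, no trend, voom or the replicate block. It was 1 with quantile normalization, 6 with robust hyperparameters and between 0 and 1 with single libraries left out. The fits with 0 calls on all 6 libraries gave between 57 and 3008 transcripts at an unadjusted p under 0.05. As shares of the rows each fit tested, these fits gave between 2.93% and 9.31%. The count of 57 was 7.18% of 794 rows, and that of 3008 was 2.93% of 102731 rows. Libraries sharing a replicate number had deviations that correlated at 0.192, -0.0039 and 0.093 for numbers 1 to 3. PC3 replicates 2 and 3 each correlated best with another number, at 0.015 and 0.113, so the numbers were not taken as pairs. These values cannot settle whether the libraries were prepared in pairs. With the replicate block no member passed, with the lowest adjusted p at 0.673 for PLK1. The cause of these shifts was not tested. Few reads stand behind the lowest members, and CDK1 held at most 2 reads in 5 of 6 libraries, the deepest included.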
